A study of Arabidopsis thaliana with 30 samples.

Results

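The genes AT4G22050, AT1G09750 and AT5G19100 belong to the aspartyl protease family of Arabidopsis thaliana, and their RNA levels were followed through seed development in the wild type and in lec1 mutants. The members were found as the probe sets annotated to these 3 genes. On the ATH1 array these were 3 of 22746 probe sets other than controls, 1 for each gene. On the older AtGenome1 array they were 2 of 8247, with AT4G22050 and AT1G09750 represented and AT5G19100 not analysed here. All 3 ATH1 probe sets passed the filter on low signals (100 on at least 2 arrays), which left 18459 probe sets to test.

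LEC1 (LEAFY COTYLEDON1) is a subunit of the NF-Y transcription factor and acts in embryo and seed development. On ATH1 the wild type, ecotype Ws-0, was measured as seed taken 24 hours after fertilization, as cotyledon, as mature green and as post-mature green seed, and as seedlings 3 days after imbibition. The lec1-1 mutant, in Ws-0 too, was measured as seed of the same 4 ages and also as globular seed. Each of these 10 groups had 2 arrays, labelled biological replicates. On AtGenome1 the wild type was measured at 24 hours, in mid-maturation and in late maturation, and a lec1 mutant whose allele the labels do not give was measured at 24 hours and in mid-maturation. Each of these 5 groups was 1 sample hybridized to 2 arrays as technical replicates. All samples shared the Ws-0 background. The lec1-1 samples are 1 mutant allele, and the RNA came from whole seeds, in which embryo, endosperm and seed coat are mixed. No wild-type globular sample and no lec1-1 seedling was measured, so the globular stage and the seedling each stand without a counterpart.

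Aspartyl proteases cut proteins with an active site that carries paired aspartate residues, and many of them work best in acidic compartments. In plants they form a large family whose proteins lie in the vacuole, in the cell wall space or in plastids. In seeds, vacuolar members take part in the processing of storage proteins, next to the vacuolar processing enzymes, which are cysteine proteases. LEC1 is best known for promoting the maturation phase, in which storage reserves accumulate.

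The 3 genes were chosen by the size of differences measured on these ATH1 arrays. AT4G22050 had the largest passing lower value in lec1-1 at 24 hours among probe sets of 1 gene whose arrays did not overlap between the genotypes. AT5G19100 ranked 6 among the higher values in lec1-1 at mature green. AT1G09750 ranked 4 among the higher values in lec1-1 at post-mature green, 3 among the lower values from mature green to post-mature green in the wild type, and 3 among the lower values from 24 hours to globular in lec1-1. Comparisons that share a group of arrays with one of these are therefore given as descriptions without a p-value. The remaining comparisons were tested with limma across all 18459 probe sets, and Benjamini-Hochberg adjusted values are printed. That left 13 tested comparisons for AT4G22050, 4 for AT1G09750 and 9 for AT5G19100, out of 17 each.

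On the ATH1 arrays, AT4G22050 was at its highest in early wild-type seed, AT1G09750 had a high, low, high course and AT5G19100 was at its highest in late lec1-1 seed. Signals are the authors' scaled values on a linear scale, on arrays whose median signal lay between 176.8 and 217.4. A signal under 100 is treated as near background. Levels of different probe sets are not compared with each other.

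**Figure D1:**
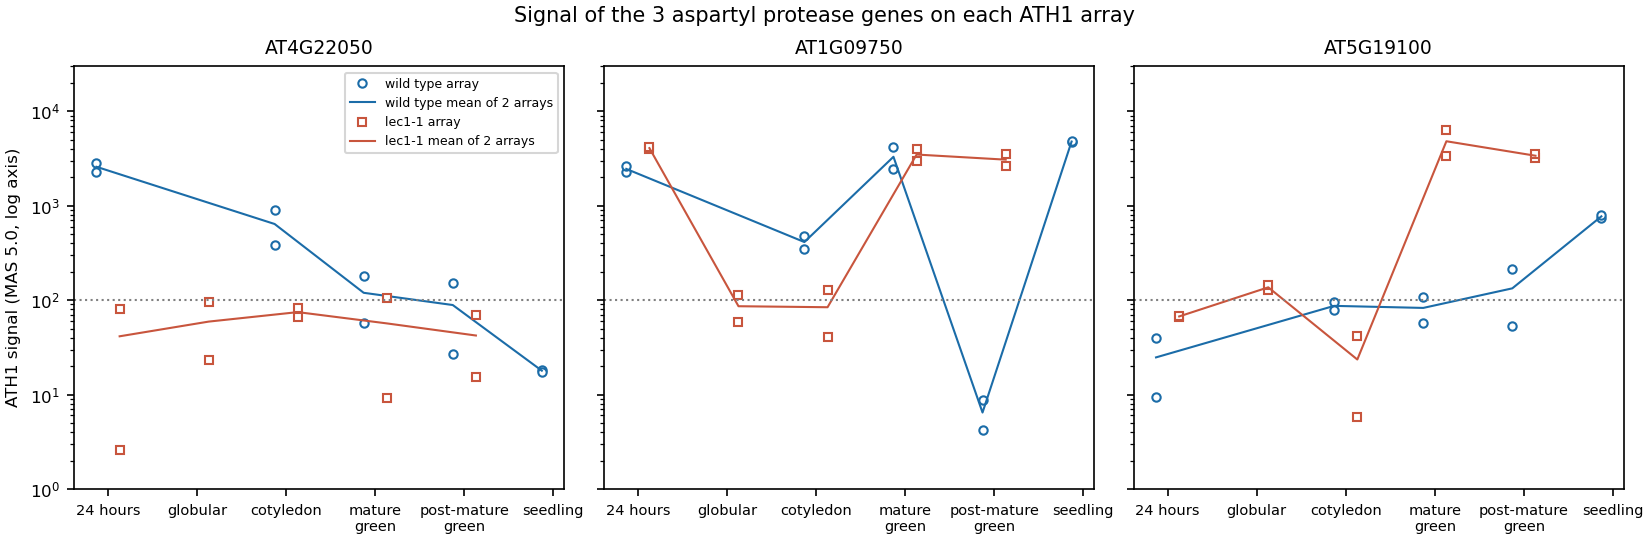
Signal of AT4G22050, AT1G09750 and AT5G19100 on each ATH1 array (log axis) against the stage, with wild type as circles, lec1-1 as squares, and lines through the means of 2 arrays; the dotted line marks a signal of 100. AT4G22050 lies above 100 on both arrays of a group in wild-type seed at 24 hours and cotyledon only, AT1G09750 lies under 10 on both wild-type arrays at post-mature green, and AT5G19100 lies at 3195.2 or above on all 4 lec1-1 arrays at mature green and post-mature green.

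AT4G22050 was detected in early wild-type seed and hardly elsewhere. Its signal was 2297.4 and 2868.0 on the 2 wild-type arrays at 24 hours, and 2.6 and 80.2 on the lec1-1 arrays. Both lec1-1 arrays were thus near background at a stage when the wild type had its highest level, and the lec1-1 level was at least 25.7-fold lower, a bound taken against a signal of 100. The log2 difference of lec1-1 minus wild type was -4.98 ± 0.57 (moderated SE, n = 2 arrays per group). It chose the gene and is not tested here, and for comparison 0.114% of all probe sets passed as lower in this contrast. In such bulk samples, fewer cells of a type and less RNA per cell cannot be told apart. The seed coat markers also differed at this stage: the summed signal of the 3 measured of 8 listed markers (BAN, DFR and DELTA-VPE) was 9764.9 to 10219.7 in the wild type and 5979.7 to 6342.4 in lec1-1. Their part in the result was not tested. DFR, an enzyme of flavonoid synthesis, was the marker that passed at 24 hours, with a log2 difference of -1.96 ± 0.26 (limma, adjusted p = 0.00156).

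At the cotyledon stage AT4G22050 had signals of 386.3 and 894.4 in the wild type and of 66.8 and 82.5 in lec1-1. The groups did not overlap, and the wild-type arrays also lay well apart from each other. The level in lec1-1 was at least 5.88-fold lower. The log2 difference of -2.37 ± 0.57 missed the threshold of 0.05 (limma, adjusted p = 0.0655), in a contrast where 0.71% of all probe sets passed in either direction. It passed when values were floored at 100, at an adjusted p of 0.00133, and when only the cotyledon arrays entered the fit, at 0.0175. Over its alternatives the adjusted p ranged from 0.00133 to 0.77.

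The wild-type level of AT4G22050 was stepwise lower along the course of development. From 24 hours to cotyledon it was 4.03-fold lower by the ratio of means, a value that shares the 24-hour arrays with the choice of the gene. From cotyledon to mature green, where the signals were 57.1 and 182.1, it fell by 2.03 ± 0.57 on the log2 scale (limma, adjusted p = 0.00972), a step in which 18.2% of all probe sets fell. This call rested on single arrays: without the second wild-type cotyledon array or without the first mature green array the difference was -1.47, at adjusted p = 0.143 and 0.13. It was also lost with an offset of 1 (adjusted p = 0.179) or 16 (adjusted p = 0.0515) in place of 50 before taking logs.

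Later wild-type stages added no passing step for AT4G22050. The post-mature green signals were 150.9 and 26.6, and the seedling signals 18.4 and 17.4. The step to the seedling, -0.87 ± 0.57 with an adjusted p of 0.197, passed without the second post-mature green array (-1.57, adjusted p = 0.047). In lec1-1 no later or globular group had both arrays above 100, with signals of 95.1 and 23.4 at globular, 104.3 and 9.1 at mature green, and 15.4 and 69.0 at post-mature green. The 3 tested steps within lec1-1, from globular onwards, had log2 differences between -0.38 and 0.27, and the lowest adjusted p among them was 0.648. The genotype differences at mature green (-0.72 ± 0.57, adjusted p = 0.377) and post-mature green (-0.49 ± 0.57, adjusted p = 0.515) did not pass in limma's test, and the arrays overlapped. Ordered by mean, wild type at 24 hours stood first and wild type at cotyledon next, each apart from the group below it, while from wild type at mature green downwards every neighbouring pair of groups overlapped.

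AT1G09750 was abundant at 24 hours, lower at cotyledon and abundant again at mature green, in both genotypes. At 24 hours its signals were 2251.3 and 2657.3 in the wild type and 4013.8 and 4136.7 in lec1-1, so that both lec1-1 arrays lay above both wild-type arrays. The ratio of means was 1.66, with a log2 difference of 0.73 ± 0.29 that is given as a description. At the cotyledon stage the order was the opposite, with 344.0 and 480.5 in the wild type and 127.4 and 40.8 in lec1-1.

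The cotyledon difference of AT1G09750 shares no array with the choice of the gene, and it passed the test. The gene was lower in lec1-1 by a log2 difference of -1.85 ± 0.29 (limma, adjusted p = 0.00202), and both lec1-1 arrays lay below both wild-type arrays. In this contrast 0.645% of all probe sets passed as lower. The call was lost without the second wild-type cotyledon array, at -1.63 and an adjusted p of 0.0584, and without the second lec1-1 cotyledon array, at -1.37 and 0.0878. With a covariate for whether the labels state an array lot, the adjusted p was 0.0497. At this stage a lot is stated for both wild-type arrays and for neither lec1-1 array, and whether the lots differed is not given in the sources used here.

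At mature green AT1G09750 had signals of 2450.0 and 4145.8 in the wild type and 2943.4 and 4022.2 in lec1-1, and the genotypes overlapped. At post-mature green the wild type was at 4.2 and 8.7, while lec1-1 was at 2651.1 and 3499.1. The wild-type arrays were both near background and the lec1-1 arrays both close to their mature green values. The level in lec1-1 was at least 30.5-fold higher, and the wild-type level was at least 31.9-fold lower than at mature green. Both comparisons chose the gene, and 23.7% of all probe sets passed as higher in lec1-1 at post-mature green and 19.1% as lower in the wild-type step.

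The summed signal of the 2 measured of 6 listed green seedling markers, PRK of the Calvin cycle and LHCB4.2 of photosystem antennae, had the same order at these stages in the wild type. The sum lay between 4952.1 and 8660.8 at mature green and between 557.4 and 781.7 at post-mature green. From 24 hours to cotyledon in the wild type the order was the opposite. The sum was higher at cotyledon, at 3309.4 to 4500.5 against 2169.7 to 2878, while AT1G09750 was lower. At the other wild-type steps the sum and the gene went the same way. In lec1-1 the sum lay between 1226.5 and 1676.9 at mature green and between 2002 and 2839 at post-mature green. Neither marker was near background on both arrays of any group, and the part of green tissue in the AT1G09750 values was not tested.

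The stage steps of AT1G09750 that the choice did not touch were large in both genotypes. In the wild type the level fell from 24 hours to cotyledon by 2.45 ± 0.29 on the log2 scale (limma, adjusted p = 2.63e-06), a step in which 12.2% of all probe sets fell. In lec1-1 it rose from cotyledon to mature green by 4.78 ± 0.29 (adjusted p = 2.04e-10), a step in which 18.8% rose. The lec1-1 globular arrays were at 59.2 and 113.2, one on either side of 100, against 4013.8 and 4136.7 at 24 hours. This step chose the gene and is not tested, and 16.5% of all probe sets fell in it. The seedling arrays were the highest of all, at 4674.3 and 4891.5. The mature green lec1-1 arrays lay below both seedling arrays, but the log2 difference of -0.47 ± 0.29 did not pass in limma's test (adjusted p = 0.201), where 45.5% of all probe sets passed in either direction.

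Ordered by mean, the AT1G09750 levels lay in 2 ranges with a gap. Seedling, lec1-1 at 24 hours, lec1-1 and wild type at mature green, lec1-1 at post-mature green and wild type at 24 hours had means from 4783 down to 2454, and below the seedling each overlapped the next. Wild type at cotyledon followed at 412.25, then lec1-1 at globular and cotyledon, which overlapped, and wild type at post-mature green at 6.45, each of the others apart from its neighbour.

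AT5G19100 was near background in most seed samples and high in late lec1-1 seed. At mature green its signals were 6271.0 and 3360.1 in lec1-1 and 57.3 and 108.1 in the wild type. The genotypes were far apart, although the lec1-1 arrays also differed from each other. The log2 difference of 5.16 ± 0.38 chose the gene, and 15.7% of all probe sets passed as higher in this contrast.

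At post-mature green, with arrays the choice did not use, the signals were 3195.2 and 3571.9 in lec1-1 and 53.2 and 213.4 in the wild type. AT5G19100 was higher in lec1-1 by a log2 difference of 4.38 ± 0.38 (limma, adjusted p = 3.23e-08), and both lec1-1 arrays exceeded both wild-type arrays. In this contrast 23.7% of all probe sets passed as higher. Over 15 alternatives the difference ranged from 3.70 to 5.05 and its adjusted p from 1.33e-08 to 0.000186.

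Seedlings carried AT5G19100 RNA as well, at 736.1 and 806.7. In the wild type the level rose from post-mature green seed to the seedling by 2.31 ± 0.38 on the log2 scale (limma, adjusted p = 3.1e-05), a step in which 28.1% of all probe sets rose. Post-mature green lec1-1 seed was above the seedling by 2.06 ± 0.38 (adjusted p = 0.000185), where 26.4% of all probe sets were higher. Post-mature green lec1-1 seed thus exceeded both the wild-type seed of its stage and the seedling, and its arrays overlapped neither.

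Earlier stages gave small AT5G19100 values. At 24 hours the signals were 9.5 and 40.0 in the wild type and 66.2 and 68.2 in lec1-1, and at cotyledon 95.4 and 78.5 against 5.8 and 41.2. All of these were below 100, so no fold is given, and neither difference passed in limma's test (0.68 ± 0.38 with an adjusted p that rounded to 1, and -0.94 ± 0.38 with an adjusted p of 0.449). Within lec1-1 the globular signals of 128.1 and 145.3 were above the cotyledon ones, and the level fell by 1.39 ± 0.38 on the log2 scale (limma, adjusted p = 0.0171), where 6.9% of all probe sets fell. That fall concerned signals close to 100: it did not pass with values floored at 100 (-0.31, adjusted p = 0.57), nor without the first cotyledon array (adjusted p = 0.202), the first globular array (0.0727) or the second globular array (0.0896). From cotyledon to mature green in lec1-1 the level was at least 45.9-fold higher, a description that shares arrays with the choice.

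Ordered by mean, lec1-1 at mature green and post-mature green overlapped at the top for AT5G19100 and stood apart from the seedling, which stood apart from all remaining groups. Among the other groups, whose means ran from 136.7 down to 23.5, neighbouring groups overlapped except lec1-1 at 24 hours above wild type at 24 hours. All signals of these 24-hour groups were under 100, so their order describes the arrays and is not settled.

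The stage with the largest difference between the genotypes was for each gene one that had chosen it, so the order of the stages is not compared between the genes. Over the 10 group means of log2(signal + 50), Pearson's r was -2.37e-05 between AT4G22050 and AT1G09750, -0.466 between AT4G22050 and AT5G19100, and 0.436 between AT1G09750 and AT5G19100. These values describe 10 points that share arrays and scaling, and they carry no test.

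**Figure D2:**
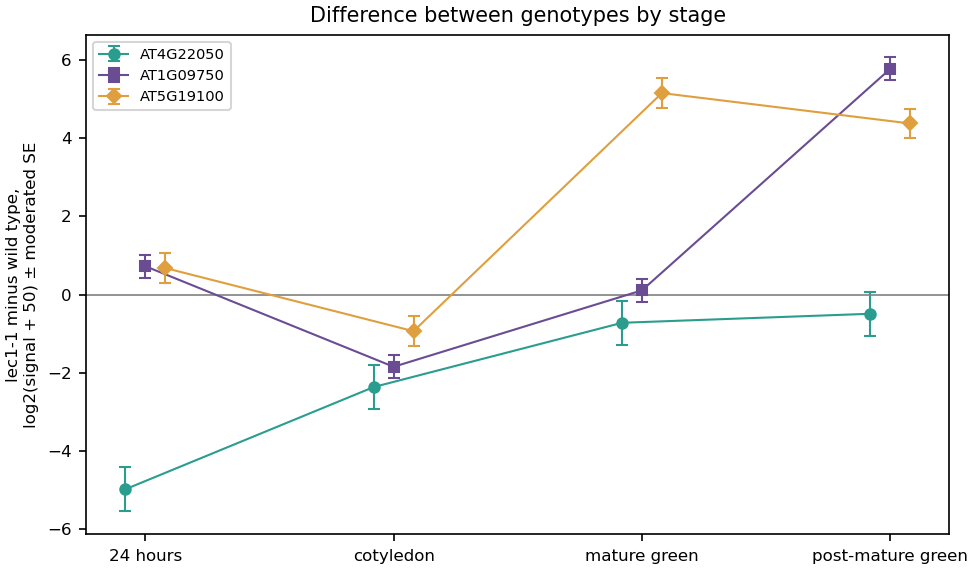
Difference of lec1-1 minus wild type in log2(signal + 50) at the 4 stages measured in both genotypes, with bars for the moderated standard error (2 arrays per group). AT4G22050 starts at -4.98 and lies within 1 of 0 from mature green on, AT1G09750 goes from 0.73 to -1.85 at cotyledon and to 5.78 at post-mature green, and AT5G19100 reaches 5.16 and 4.38 at the last 2 stages.

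The AtGenome1 arrays gave values for AT4G22050 and AT1G09750 from other hybridizations, of wild-type seed and of lec1 seed whose allele is not given. Whether the RNA was the same is not given in the sources used here. Values are average differences, which can fall below 0, and folds were taken after a floor of 250. AT4G22050 read 5311.1 and 4909.2 in the wild type at 24 hours, and 66.0 and -79.3 in lec1. At mid-maturation it read 1166.1 and 1371.9 in the wild type and 86.3 and 84.8 in lec1. The wild type was thus above the floor at both stages and lec1 below it at both. The level in lec1 was at least 20.4-fold lower at 24 hours and at least 5.08-fold lower at mid-maturation. Calls by size, at least 2-fold with the arrays apart, covered 1.75% of all probe sets as lower at 24 hours and 4.49% at mid-maturation. In wild-type seed the gene was 4.03-fold lower at mid-maturation than at 24 hours and another 4.49-fold lower at late maturation, where it read 266.5 and 298.6. Calls of a lower value covered 10.3% and 14.4% of all probe sets in these steps.

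AT1G09750 on AtGenome1 read 7258.8 and 8292.7 in the wild type and 13808.5 and 14633.6 in lec1 at 24 hours. The 2 lec1 arrays were above both wild-type arrays, as on ATH1, and the ratio of 1.83 stayed under the 2-fold size for a call. At mid-maturation it read 2210.5 and 2121.9 in the wild type and 5041.8 and 5165.9 in lec1, a 2.36-fold higher value in lec1, where 4.53% of all probe sets were called higher by size. Both genotypes were lower at mid-maturation than at 24 hours, by 3.59-fold in the wild type and 2.79-fold in lec1, and 11.5% of all probe sets were called lower in the lec1 step. The wild type reached 630.6 and 828.3 at late maturation. The stage names of the AtGenome1 samples differ from those of the ATH1 samples after 24 hours, so mid-maturation was not matched to an ATH1 stage. With 1 sample per group there is no replicate check and no p-value.

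**Figure D3:**
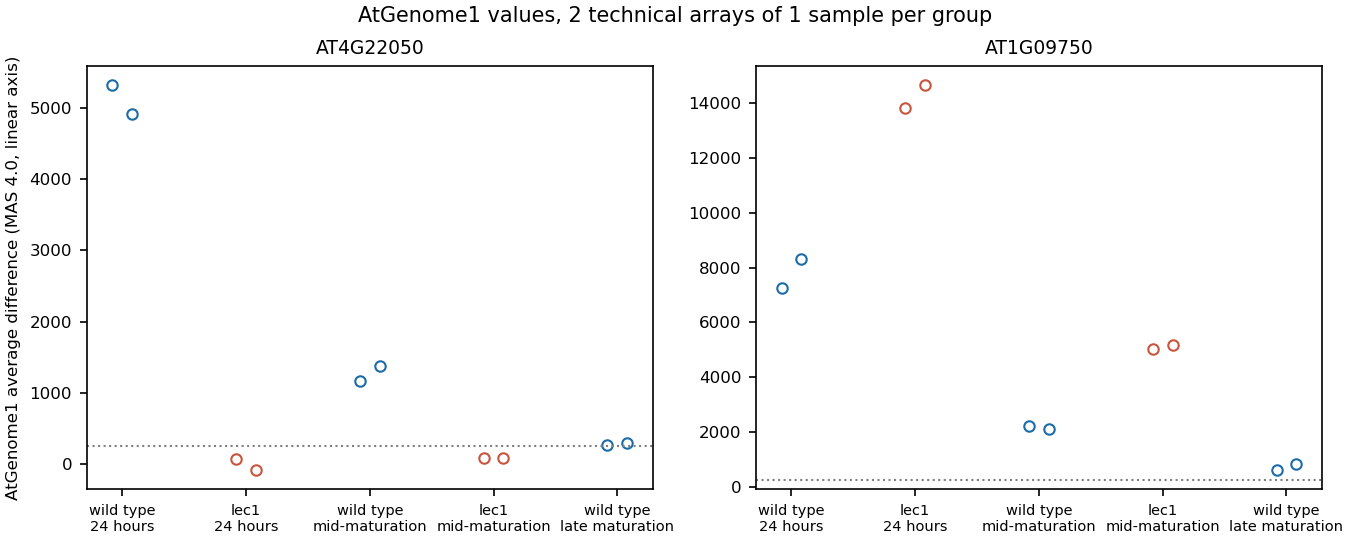
AtGenome1 average differences (linear axis) of AT4G22050 and AT1G09750 on the 2 technical arrays of each sample, wild type in blue and lec1 in red; the dotted line marks the floor of 250. For AT4G22050 the lec1 samples lie below the floor at both stages, and for AT1G09750 they lie above the wild type at both.

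AT5G19110 and AT5G19120, which belong to the same family, lie 2 and 3 annotated genes away from AT5G19100 on the chromosome. AT5G19110 had signals of 887.2 and 776.1 in lec1-1 at mature green and of 32.6 and 73.7 in the wild type. It was at least 8.30-fold higher in lec1-1, with a log2 difference of 3.12 ± 0.43 (limma, adjusted p = 1.99e-05). At post-mature green it read 575.8 and 611.8 in lec1-1 and 120.8 and 412.6 in the wild type, and the difference of 1.20 ± 0.43 passed again (adjusted p = 0.0304). The difference between the genotypes was larger at mature green than at cotyledon by 3.44 ± 0.61 (adjusted p = 0.000569) and smaller at post-mature green than at mature green by a change of -1.93 ± 0.61 (adjusted p = 0.0366). Of all probe sets, 10.7% passed as higher in the first of these changes and 5.91% as lower in the second.

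Unlike AT5G19100, AT5G19110 was near background in the seedling, at 18.6 and 7.9. AT5G19120 had another course, with its highest signals at 24 hours, 10247.2 and 6811.5 in the wild type and 12329.5 and 11474.5 in lec1-1. It overlapped between the genotypes at mature green and was higher in lec1-1 at post-mature green by 1.61 ± 0.44 (limma, adjusted p = 0.00569). Whether probes of these nearby family genes bind each other's RNA was not tested.

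**Figure D4:**
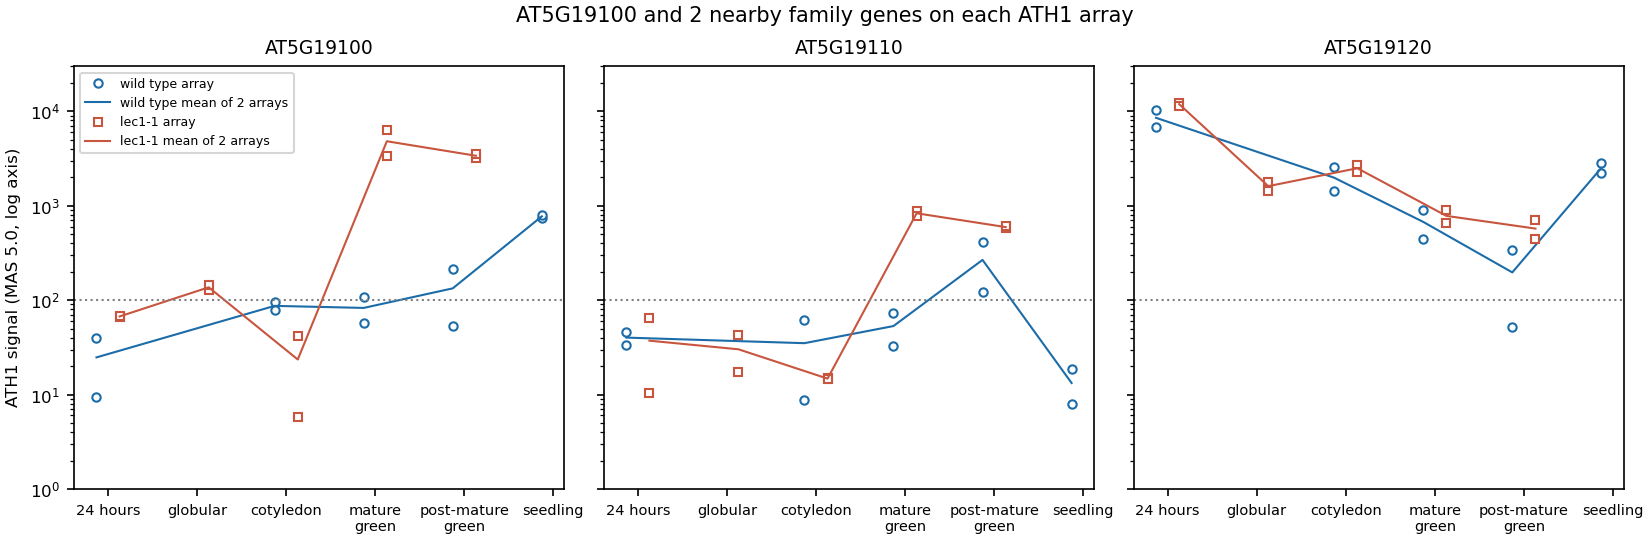
Signal of AT5G19100, AT5G19110 and AT5G19120 on each ATH1 array (log axis) by stage, wild type as circles and lec1-1 as squares, lines through means of 2 arrays, dotted line at 100. AT5G19100 and AT5G19110 are both at their highest in lec1-1 at mature green and post-mature green, while AT5G19120 is at its highest at 24 hours in both genotypes.

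The nearest genes with a named probe set on the other side of AT5G19100 were AT5G19070 and AT5G19090, 11 and 9 annotated genes away, with signals between 224.9 and 612 and between 204.5 and 1440.2 over all arrays. Around AT4G22050, AT4G22030 and AT4G22040, 3 genes and 1 gene away, stayed under 100 on every array, AT4G22060, 2 genes away, reached 128.2 at most, and these 3 did not pass the filter. AT4G22110, 12 genes away, was at its highest in lec1-1 globular seed, at 1345.2 and 1412.6. Next to AT1G09750, AT1G09740 was at its highest in seedlings, at 835.5 and 794.4. AT1G09730, AT1G09800 and AT1G09820, which lie 2, 8 and 13 genes away, ranged from 93.8 to 887.9.

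Other family genes were taken from lists of described members and from annotation text naming an aspartyl protease or aspartic proteinase. This list need not hold every gene of the family. Of its 21 genes, members left out, 14 had a named ATH1 probe set and 13 passed the filter. Between the genotypes 0 of these 13 passed at 24 hours and 0 at cotyledon, where limma called 0.119% and 0.71% of all probe sets. At mature green 1 was higher and 3 were lower in lec1-1, or 30.8%, beside 28.7% of all probe sets. At post-mature green 4 were higher and 4 lower, or 61.5%, beside 44.1%. The median log2 difference of the 13 genes was 0.17, 0.27, -0.35 and 0.18 at the 4 stages in order, and that of all probe sets tested lay between -0.02 and 0.02.

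The family genes that were lower in late lec1-1 seed were AT1G62290, AT5G10770, APA1 and AT4G04460. AT1G62290 read 41868.9 and 38871.9 in the wild type at mature green and 8799.7 and 9603.6 in lec1-1, a log2 difference of -2.13 ± 0.39 (limma, adjusted p = 0.000365), and -1.91 ± 0.39 at post-mature green. APA1, a vacuolar aspartic proteinase, read 33370.4 and 35902 in the wild type at post-mature green and 13206.1 and 15219.3 in lec1-1 (-1.28 ± 0.16, adjusted p = 2.63e-06). It was lower at mature green too, by -0.84 ± 0.16. AT5G10770 was lower at both stages, by -1.94 ± 0.38 and -1.76 ± 0.38. AT4G04460 was lower at post-mature green, by -1.73 ± 0.35 (adjusted p = 0.000481), and its mature green arrays overlapped between the genotypes. The AtGenome1 values at mid-maturation went the other way for those of these genes measured there: AT1G62290 read 1359.9 and 1391.3 in lec1 and 584.2 and 641.6 in the wild type (2.24-fold higher), and AT4G04460 read 29157 and 28200 against 13495.7 and 10180.2 (2.42-fold higher). APA1 read 60670.1 and 57489 against 40290.8 and 34201.1, 1.59-fold higher and under the size for a call. Of 7 other family genes on AtGenome1, 3 were called higher (AT1G62290, AT4G04460 and AT1G03230) and 0 lower by size in this comparison, beside 4.53% and 4.49% of all probe sets. In the wild type these genes were higher still at late maturation than at mid-maturation. The ratio was 30.7 for AT1G62290, 2.12 for AT4G04460 and 2.04 for APA1, and no lec1 seed was measured at late maturation. Mid-maturation was not matched to an ATH1 stage, and with 1 sample per group the difference from ATH1 was not tested.

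Besides AT5G19110 and AT5G19120, the family genes that were higher in post-mature green lec1-1 seed were AT1G49050 and NANA, an aspartyl protease of the chloroplast. AT1G49050 read 594 and 750.9 in lec1-1 and 314.8 and 226.1 in the wild type, a log2 difference of 1.18 ± 0.23 (limma, adjusted p = 0.00043). NANA read 161.5 and 190.8 against 77.6 and 64.3 (0.90 ± 0.28, adjusted p = 0.0144). AT1G69100, named after its values were seen, was like AT4G22050 at its highest at 24 hours, but its signals of 1422.7 and 2307.7 in the wild type and 1255.6 and 1630.1 in lec1-1 overlapped (-0.33 ± 0.47, adjusted p that rounded to 1).

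**Figure D5:**
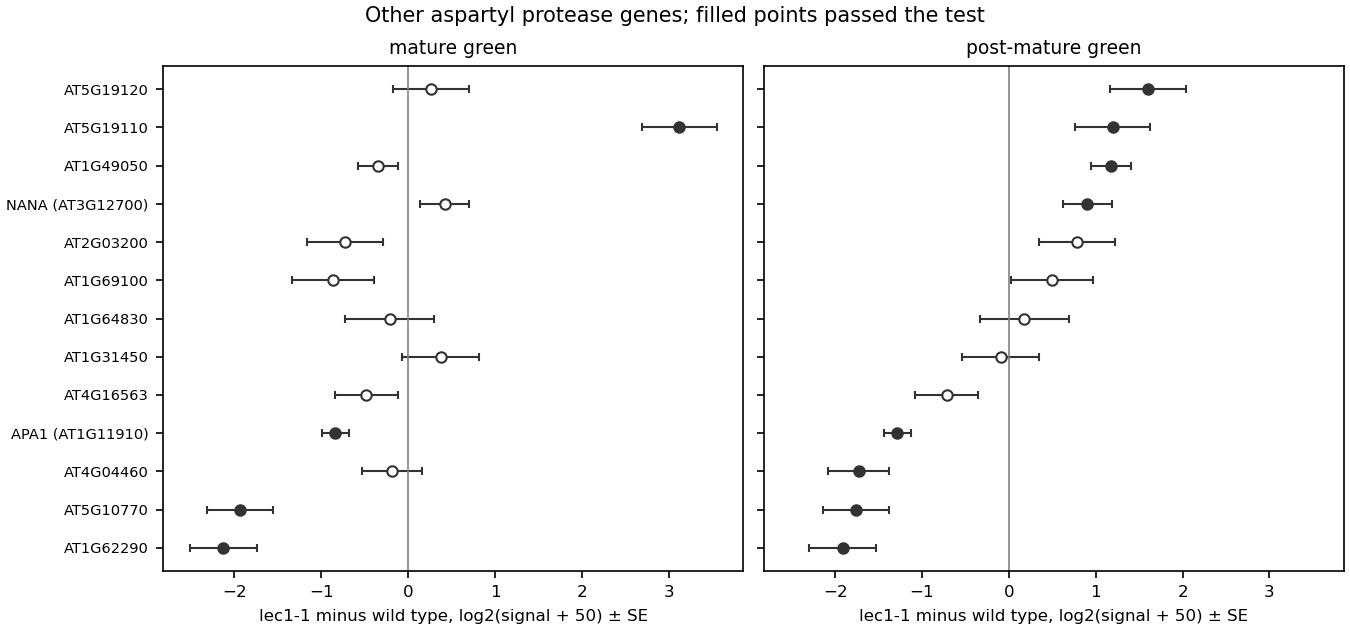
Log2 difference of lec1-1 minus wild type, with moderated standard errors (2 arrays per group), at mature green and post-mature green. Points are the 13 other listed aspartyl protease genes that were tested, and filled points passed the limma test at an adjusted p of 0.05. At mature green 1 point is filled to the right of 0 and 3 to the left, and at post-mature green 4 on each side.

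The listed vacuolar processing enzymes, some of which mature storage proteins in the vacuole, were all measured. At mature green 3 of 4 were lower in lec1-1 and at post-mature green all 4, beside 13% and 20.5% of all probe sets called lower, and 0 passed as higher at either stage. BETA-VPE, the main enzyme of this kind in seed storage vacuoles, read 31681.3 and 36583.4 in the wild type at post-mature green and 7852.3 and 8998.3 in lec1-1 (-2.01 ± 0.23, limma, adjusted p = 9.24e-07). ALPHA-VPE was lower at mature green by -2.39 ± 0.41 (adjusted p = 0.000224) and GAMMA-VPE at post-mature green by -1.60 ± 0.29 (adjusted p = 0.000165).

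The genes whose course over the 10 ATH1 group means was most like that of each member were named by Pearson's r, given as a description. For AT5G19100 they were AT4G30650 (r = 0.974), PUB19 (0.973) and AT5G23830 (0.971). AT4G30650 read 6717.4 and 4157.4 in lec1-1 at mature green, 134.8 and 260.4 in the wild type at that stage, and 1459 and 975.7 in seedlings. PUB19, a ubiquitin ligase, read 712 and 812.2, 129.2 and 95.9, and 275.4 and 646.2 in the same groups. For AT1G09750 they were AT5G12900 (0.94), AT5G62890 (0.923) and AT3G28040 (0.923), and AT5G62890 read 314.7 and 266.4 in the wild type and 1633 and 2087 in lec1-1 at post-mature green. For AT4G22050 they were AT1G16220 (0.865), AT3G19940 (0.852) and AT4G09520 (0.799), of which AT1G16220 did not exceed 219.1 and AT3G19940 did not exceed 129.6 on any array. Spearman's rank correlation over the same means was lower for every pair. It was 0.612 to 0.745 for AT5G19100, 0.733 to 0.915 for AT1G09750 and 0.576 to 0.709 for AT4G22050.

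Marker genes were set against the tissues in the labels as far as they were measured. The 3 measured of 12 listed embryo reserve genes (OLEO3, PAP85 and AT4G36700) summed to between 131883 and 144741 in the wild type at mature green and to between 23533.2 and 27354.1 in lec1-1. In seedlings they summed to at most 536.8, the seed coat markers to at most 308.4, and the green seedling markers to between 33474.8 and 36454.3. The 2 measured of 7 endosperm markers, AGL62 and IKU2, summed to at most 191.9 in any group, and the 1 measured of 5 silique wall markers, ALC, read 6179.6 to 8134.7 at 24 hours in both genotypes. ALC was higher in lec1-1 at mature green, at 347.1 to 471.1 against 179.3 to 190.6 (0.95 ± 0.17, limma, adjusted p = 0.000256), and at post-mature green, at 392.9 to 402.6 against 133.6 to 146.5 (1.24 ± 0.17, adjusted p = 8.22e-06), the stages at which AT5G19100 was higher and, at the later one, AT1G09750. The part of silique wall in those values was not tested. No named probe set stood for LEC1, which is not analysed here, and the genotype of each array rests on its label. Between the 2 arrays of a group, log2 values differed with a standard deviation of 0.328 to 0.649, highest in post-mature green wild type.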

How the data were processed

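Each deposited ATH1 value is a linear intensity that the authors computed with Affymetrix Microarray Suite 5.0, scaled to a target of 500, per the labels (the globular arrays state no scaling, and the trimmed mean of every array was 500 to 500.1). Each deposited AtGenome1 value is an average difference, a linear intensity from Microarray Suite 4.0 scaled to 2500, per the labels, whose descriptions name the ATH1 chip while the titles name AtGenome1. Probe sets were named through the platform annotation and TAIR 10.1 gene names, without coordinates.

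ATH1 differences were fitted over all 20 arrays with limma 3.58.1 (R 4.3.3; lmFit, eBayes with trend) on log2(signal + 50), with 10 residual degrees of freedom, two-sided, Benjamini-Hochberg adjusted per contrast at 0.05, after a test on simulated data. Where both arrays of a group were under 100, the fold is a bound, that of the other group's geometric mean to 100. AtGenome1 groups are 1 sample each and were not tested. Alternatives covered offset, floor, scaling, filter, whether an array lot is stated, trend, groups fitted, replicate block and leaving out arrays. The members and lists were chosen with earlier results of these data known. A list of 12 salicylate and systemic resistance genes had 0 named probe sets. Other names follow size, list, likeness and neighbour rules. The labels call the ATH1 arrays biological replicates without naming plants or harvests, so p-values measure only the spread between these samples, and 2 arrays per group limit the precision. Replicate numbers did not pair samples: over 45 group pairs the correlation of deviations ran from -0.086 to 0.18, with 3 over 0.1.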

Additional observations from a re-analysis of the deposited data

Results flagged for a closer look

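The difference between lec1-1 and wild type in AT1G09750 turned from higher at 24 hours to lower at cotyledon. At 24 hours both lec1-1 arrays exceeded both wild-type arrays and at cotyledon both lay below them, a change of -2.57 on the log2 scale. For AT5G19100 the difference at mature green exceeded that at cotyledon by 6.09. All 4 of its cotyledon signals were under 100 and the difference there did not pass (limma, adjusted p = 0.449), so no direction is read at cotyledon. Neither change was tested, because arrays of each had chosen the gene. At cotyledon and mature green the labels state an array lot for the wild-type arrays and none for the lec1-1 arrays. Whether the lots differed is not given in the sources used here, and their part in these changes was not tested.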

How the results depend on the processing

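Under an offset of 1, the log2 difference between genotypes was -7.23 for AT4G22050 at 24 hours, 5.85 for AT5G19100 at mature green and 8.75 for AT1G09750 at post-mature green, and 5 family genes passed at post-mature green. An offset of 16 gave -5.93, 5.59 and 7.10. These values rest on signals near background. With a floor of 100 they were -4.13 for AT4G22050 and 4.37 for AT1G09750, AT4G22050 at cotyledon passed at -2.10, 35 probe sets passed at 24 hours and 248 at cotyledon, and 1 family gene passed at cotyledon. With a covariate for whether a lot is stated 83 probe sets passed at cotyledon and 2974 at mature green, and AT5G19100 at mature green was at 4.47. Without the intensity trend 14 passed at 24 hours. With only the groups compared in the fit, AT4G22050 at cotyledon passed at -2.37, 326 probe sets passed at cotyledon and 2648 at mature green, and 1 family gene passed at cotyledon and 5 at post-mature green. The cause of these shifts was not tested.

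Leaving out 1 array at a time gave 5 to 12 calls at 24 hours (22 with all arrays) and 45 to 69 at cotyledon (131 with all arrays). It gave -5.64 to -4.33 for AT4G22050 at 24 hours and -1.19 to 0.20 at post-mature green, -2.33 to -1.37 for AT1G09750 at cotyledon and -0.27 to 0.48 at mature green, and 4.71 to 5.60 for AT5G19100 at mature green. Steps that turned in sign were far from the threshold or untested, and the ranges below do not cover all of them. For AT4G22050 the ranges were -1.04 to 0.35 from mature green to post-mature green in the wild type, -1.07 to 0.31 from cotyledon to mature green and -0.81 to 0.58 from mature green to post-mature green in lec1-1, -0.20 to 1.18 for lec1-1 at mature green minus seedling, and -0.46 to 0.93 for the change of the genotype difference from mature green to post-mature green. For AT5G19100 the step from mature green to post-mature green in lec1-1 ran from -0.88 to 0.008.

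With the replicate number as a block, AT1G09750 at cotyledon was at -1.85 (limma, adjusted p = 0.00134) and AT5G19100 at post-mature green at 4.38 (adjusted p = 3.67e-08). The block changed no call of a member in a tested contrast, and the family counts between genotypes stayed the same. At 24 hours the calls over all probe sets went from 22 to 18, and at cotyledon from 131 to 140. At mature green they went from 5297 to 5397, and at post-mature green from 8142 to 8224. Quantile normalization, scaling to the 75th percentile, no filter and a filter of 100 on 4 arrays changed no call between genotypes for the members. On AtGenome1, floors of 100 and 500 changed no call by size. Signals under 100 have no order that 2 arrays can settle.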
